A study of Mus musculus with 192 samples.

Results

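The HMW + Zymosan pair was compared with each of its single ligands in mouse bone marrow-derived dendritic cells. The members were chosen by their labels alone: 3 libraries of the pair, 3 of HMW and 3 of Zymosan, 9 libraries from 3 of the 64 groups of 3 that make up the series, with 3 untreated libraries named Ctrl as background. Per the labels, bone marrow came from female mice of the C57BL/6J strain aged 6 to 8 weeks and was cultured with GM-CSF at 15 ng/mL, 100000 cells were plated per well and left overnight, and ligands were given for 6 hours. All 4 groups share this strain, sex and culture and differ in the ligand alone. The labels describe the yeast particle as depleted zymosan, leave HMW unexpanded and state no doses. They do not say whether the 3 replicates came from separate mice or cultures. The p-values rest on a spread between libraries, shared per gene over all 64 groups, which may be technical.

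Depleted zymosan, yeast cell wall stripped of most of its Toll-like receptor agonists, is known to engage Dectin-1, which signals through the kinase Syk and the Card9, Bcl10 and Malt1 complex to NF-kB and is coupled to phagocytosis and an oxidative burst. HMW is in this field a common name for high-molecular-weight poly(I:C), a synthetic double-stranded RNA. No result here rests on that reading. Double-stranded RNA is sensed by Tlr3 and by the cytosolic helicases Ifih1 and Ddx58, which lead through Irf3 to interferon-β. Interferon in turn acts on the interferon-stimulated response element (ISRE) of its target genes.

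Expression was read as counts of unique molecular identifiers (UMIs), tags that mark single cDNA molecules. Total counts ran from 61823 to 89530 in Ctrl, 105332 to 194725 in HMW, 98931 to 198625 in Zymosan and 151209 to 263025 in the pair, so the untreated libraries were the shallowest, and the pair overlapped the single ligands and held the deepest library. Levels are given as CPM, the counts scaled to a common library total with TMM factors. The sums of marker genes in this paragraph are the exception. They were scaled by the total counts of each library, without TMM factors. Those factors ran from 1.10 in a pair library to 1.27 in a Ctrl library. The sums are therefore on another scale than the levels of single genes, and their differences between groups were not tested. Of 23481 genes, 4720 passed the filter on low counts. The 5 dendritic cell markers checked (Itgax, H2-Ab1, Cd74, Flt3, Zbtb46) summed to between 2910.3 and 3574 CPM over the 12 libraries. Flt3 had 1, 1, 1 and 2 counts in Ctrl, HMW, Zymosan and the pair, and Zbtb46 had 0, 1, 6 and 2. The sums came almost wholly from Itgax, H2-Ab1 and Cd74. The T cell, NK cell and erythroid markers were at 0 in all 12. The 7 markers of neutrophils and their precursors summed to 614 to 987 CPM in Ctrl, 642 to 996 in HMW, 770.3 to 822 in Zymosan and 635 to 754 in the pair, with Elane at 0 counts, and their part in the results was not tested. B cell markers summed to at most 10.1 CPM and mast cell and basophil markers to at most 5.14 CPM. Of the macrophage markers, Csf1r was at 1621 to 1776 CPM in Ctrl, 1524 to 1713 in HMW, 1233 to 1517 in Zymosan and 1215 to 1588 in the pair, Adgre1, listed as Emr1, at 194 to 437, 237 to 333, 156 to 261 and 267 to 303 CPM, and Mertk was at 0 counts in Ctrl. Transcripts of ribosomal proteins made up 5.35% to 5.62% of counts in Ctrl, 4.80% to 5.06% in HMW, 4.07% to 4.45% in Zymosan and 3.92% to 4.29% in the pair. In such bulk samples fewer cells of a type and less RNA per cell cannot be told apart.

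The pair differed from HMW far more widely than from Zymosan. At an adjusted p under 0.05 and at least 1 log2 unit of change (edgeR's quasi-likelihood test, Benjamini-Hochberg), 341 genes were called against HMW, 239 higher and 102 lower, which is 7.22% of the genes tested. Against Zymosan 92 were called, 87 higher and 5 lower, or 1.95%. That count fell to 49 without replicate 3 of the pair and to 55 without replicate 3 of Zymosan. For reference, the pair differed from Ctrl at 504 genes (10.7%), Zymosan at 295 (6.25%) and HMW at 46 (0.975%), or at 20 without HMW replicate 2 and 30 without Ctrl replicate 3. By this count HMW alone moved few genes and Zymosan alone many. With library size alone as the scaling, the pair had 170 genes higher and 164 lower than HMW, and the median change of all genes moved from -0.02 to -0.19, so the near balance under that scaling stands beside an excess of higher calls under the others, with 216 higher and 114 lower by RLE factors, 189 and 63 by DESeq2, 259 and 88 with library sizes over all genes and 100 and 24 with thinned libraries.

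**Figure D1:**
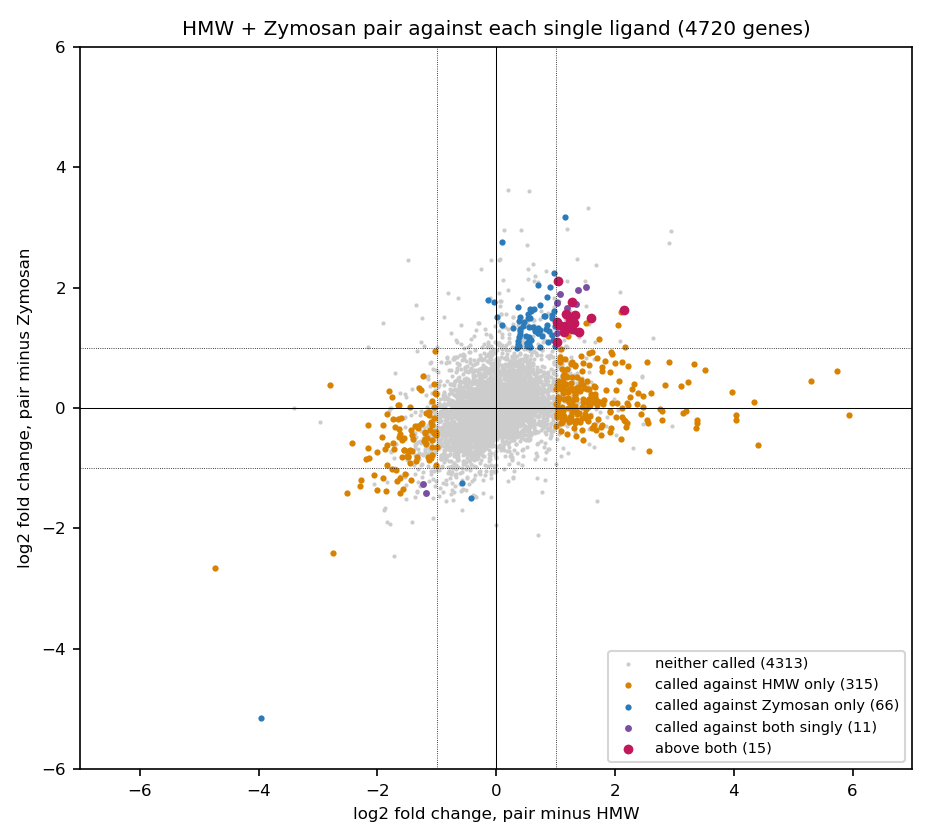
Each point is 1 of 4720 genes, with the log2 fold change of the pair against HMW on the x axis and against Zymosan on the y axis, colored by where the gene was called. The 315 genes called against HMW alone spread along the x axis, the 66 called against Zymosan alone lie along the y axis, and the 15 genes above both singles lie together in the upper right.

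A gene was called above both singles when the pair exceeded each by at least 1 log2 unit and the larger of the 2 p-values passed after adjustment. The rule gave 15 genes above both, 0.318% of those tested, and 0 below both by edgeR and by DESeq2 alike, with 49 genes below both at an unadjusted p under 0.05. Without the fold threshold 45 genes were above both and 0 below. The 15 are Batf2, Gbp2, Gbp3, Gbp5, Mnda, Ifi205, Ifit1, Ifit2, Rsad2, Cmpk2, Isg15, Irgm1, Oasl1, Nlrc5 and Papd7. Nearly all are known from the interferon response, and 6 belong to the 15-gene interferon list used here. Their log2 rise ran from 1.02 to 2.15 over HMW (median 1.24, against -0.02 over all genes) and from 1.11 to 2.11 over Zymosan (median 1.43, against 0.00). These values chose the genes and are given as a description.

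The promoters of 4 of these genes are shown with that of the chemokine gene Cxcl2, which zymosan alone raised, because the letters they hold differ. Each is 250 bases before to 50 after the transcription start in GRCm38.p6, from RefSeq, along the gene's strand. Capitals in the first 3 mark the ISRE core (GAAA, any 2 bases, GAAA) on either strand, in Gbp5 the ISRE core and then 1 NF-kB sequence (GGG, any 2 bases and TTTCC, or GGGA, any base and TTTCC, either strand), and in Cxcl2 2 NF-kB sequences.
Isg15 (chr4:156200769-156201068, minus strand): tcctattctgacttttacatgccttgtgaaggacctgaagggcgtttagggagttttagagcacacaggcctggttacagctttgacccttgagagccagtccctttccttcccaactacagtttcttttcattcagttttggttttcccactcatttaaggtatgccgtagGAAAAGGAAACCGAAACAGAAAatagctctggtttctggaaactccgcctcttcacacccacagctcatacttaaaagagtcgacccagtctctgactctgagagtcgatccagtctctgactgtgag
Ifit1 (chr19:34640639-34640938, plus strand): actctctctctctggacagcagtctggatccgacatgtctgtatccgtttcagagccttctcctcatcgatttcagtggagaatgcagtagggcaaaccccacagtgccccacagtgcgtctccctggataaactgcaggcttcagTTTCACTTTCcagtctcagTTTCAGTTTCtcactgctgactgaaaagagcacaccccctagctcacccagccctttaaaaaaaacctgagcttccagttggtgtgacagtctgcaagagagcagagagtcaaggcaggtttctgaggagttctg
Gbp2 (chr3:142620413-142620712, plus strand): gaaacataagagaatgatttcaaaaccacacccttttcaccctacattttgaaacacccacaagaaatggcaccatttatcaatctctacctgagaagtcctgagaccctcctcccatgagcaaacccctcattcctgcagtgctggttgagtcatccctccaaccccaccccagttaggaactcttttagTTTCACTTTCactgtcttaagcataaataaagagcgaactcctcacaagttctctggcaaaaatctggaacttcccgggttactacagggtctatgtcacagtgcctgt
Gbp5 (chr3:142496684-142496983, plus strand): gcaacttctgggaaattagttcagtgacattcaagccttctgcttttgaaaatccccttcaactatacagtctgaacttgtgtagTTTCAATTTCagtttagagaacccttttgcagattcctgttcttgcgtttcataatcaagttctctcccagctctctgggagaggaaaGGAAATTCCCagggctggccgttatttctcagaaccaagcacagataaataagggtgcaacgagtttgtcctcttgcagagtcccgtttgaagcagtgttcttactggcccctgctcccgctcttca
Cxcl2 (chr5:90903649-90903948, plus strand): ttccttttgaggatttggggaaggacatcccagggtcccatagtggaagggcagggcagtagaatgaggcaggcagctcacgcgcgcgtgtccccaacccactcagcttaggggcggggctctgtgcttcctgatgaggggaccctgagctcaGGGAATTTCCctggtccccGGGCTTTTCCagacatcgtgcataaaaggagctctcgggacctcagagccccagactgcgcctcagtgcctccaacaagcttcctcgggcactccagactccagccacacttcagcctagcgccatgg

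Isg15 held 3 overlapping ISRE cores between 66 and 78 bases before its start, Ifit1 held 2, at 104 and 85 bases, and Gbp2 held 1 at 59 bases. Of the 15 genes above both singles, 11 had a promoter in the table and 8 of these held the ISRE core. It was present in 3.44% of all 32851 promoters of this length and, by gene, in 5.09% of the 3614 tested genes with a promoter. Among the genes higher than Zymosan 27 of 64 held it (42.2%), among those higher than HMW 16 of 182 (8.79%), and among those lower than HMW 6 of 77 (7.79%). The NF-kB sequences stood in 1.63% of all promoters, in 2.41% of the tested genes with a promoter and in 8 of the 182 higher than HMW (4.40%) and 2 of the 64 higher than Zymosan (3.12%). The promoters of Tnf, Il1a and Clec4e, which zymosan alone also raised, held none. A match is a description of these letters, not of binding.

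Isg15 codes for a ubiquitin-like protein that is conjugated to other proteins in the antiviral response. Its level was 139, 225 and 182 CPM in Ctrl, 316, 282 and 191 in HMW, 147, 243 and 187 in Zymosan and 534, 567 and 624 in the pair. All 3 pair libraries lay above all 6 single-ligand libraries, a separation seen at 3.81% of the genes tested, and the Zymosan libraries overlapped Ctrl. The pair was higher than HMW by 1.17 (SE 0.19) and than Zymosan by 1.56 (SE 0.20) on the log2 scale (adjusted p = 2.44e-06 for the larger p by edgeR).

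Rsad2, the antiviral enzyme viperin, and Cmpk2, a mitochondrial nucleotide kinase, lie 12664 bases apart on chromosome 12. Rsad2 stood at 720.2, 698 and 489.7 CPM in Ctrl, 981, 1309 and 809 in HMW, 874, 1465 and 695 in Zymosan and 2073, 2154 and 3233 in the pair. The pair's lowest Rsad2 library was above the highest single-ligand library, replicate 2 of Zymosan. Cmpk2 followed with 208, 187 and 182 CPM in Ctrl, 416, 502 and 265 in HMW, 313, 467 and 252 in Zymosan and 693, 791 and 1091 in the pair, again without overlap. The log2 differences were 1.27 (SE 0.17) over HMW and 1.32 (SE 0.17) over Zymosan for Rsad2, with an adjusted p of 1.57e-09 by edgeR. For Cmpk2 they were 1.15 (SE 0.19) and 1.36 (SE 0.20), with 5.24e-06. Isg15 and Rsad2 were the only 2 of the 15 that kept their call under all 17 alternatives tried.

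The RNA-binding proteins Ifit1 and Ifit2, which limit translation of viral RNA, are coded 64354 bases apart on chromosome 19. Ifit1 read 249, 212 and 192.03 CPM in Ctrl, 416, 677 and 349 in HMW, 349.7, 569.5 and 209.9 in Zymosan and 795, 809 and 1303 in the pair, and the pair exceeded every single-ligand library. Ifit2 read 139, 199.6 and 163 CPM in Ctrl, 249, 511 and 199.8 in HMW, 175, 429 and 117 in Zymosan and 509, 791 and 1047 in the pair. Here replicate 1 of the pair (509 CPM) fell just under replicate 2 of HMW (511 CPM), so those groups overlapped. Ifit1 was near the threshold at 1.02 over HMW, and its call was lost under 7 of 17 alternatives. Their close relative Ifit3 was 1.65 (SE 0.24) above Zymosan but 0.57 (SE 0.21) above HMW, with adjusted p-values of 3.12e-08 and 0.0607 by edgeR. Reads shared within the Ifit family could move between these genes, since the treatment of such reads is not given in the sources used here.

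The guanylate-binding proteins, GTPases that assemble on vacuoles and membranes of intracellular microbes, gave 3 members from 1 cluster on chromosome 3, Gbp5, Gbp3 and Gbp2, with 37671 and 47449 bases between neighbours. Gbp2, the most abundant, was at 125, 262 and 211 CPM in Ctrl, 366, 439 and 265 in HMW, 212, 409.5 and 327 in Zymosan and 680.4, 702 and 938 in the pair. Gbp3 rose from 58.2, 112 and 60.4 CPM in HMW and 101, 96.0 and 70.0 in Zymosan to 216, 236 and 266 in the pair. Gbp5 was lower, with 108, 100.3 and 179 CPM in the pair and at most 89.7 in a single-ligand library. Adjusted p-values for above both were 1.65e-09, 6.75e-06 and 0.0159 by edgeR for Gbp2, Gbp3 and Gbp5. Irgm1, an immunity-related GTPase of the same kind of host defence, was at 208, 219.7 and 139 CPM in HMW, 101, 186 and 149 in Zymosan and 343, 372 and 434 in the pair. Unlike most of the 15, Irgm1 was also called higher than Ctrl in each single ligand, by 1.86 in HMW and 1.55 in Zymosan on the log2 scale. The Gbp genes are close paralogs, and the split of reads among them carries the same uncertainty.

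Mnda (Ifi211 in RefSeq) and Ifi205, DNA-binding proteins of the interferon-inducible Ifi200 family, lie 98910 bases apart on chromosome 1. Mnda reached 127, 148 and 171 CPM in the pair against 41.6, 89.7 and 41.8 in HMW and 36.8, 83.2 and 46.7 in Zymosan. Ifi205 reached 108, 88.5 and 179 against 24.9, 76.2 and 37.2 and 46.0, 102 and 23.3, its pair libraries overlapped replicate 2 of Zymosan, and its call was lost under 7 of 17 alternatives. Oasl1, an oligoadenylate synthetase-like protein that binds double-stranded RNA, was at 233, 274 and 92.9 CPM in HMW and 73.6, 147 and 60.6 in Zymosan, and at 349.7, 360.0 and 471 in the pair. Its difference was 2.11 log2 from Zymosan and 1.03 from HMW, and its call was lost under 6 of 17 alternatives.

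The remaining genes above both act on transcription or RNA. Nlrc5, the transactivator of MHC class I genes, was at 261, 289 and 212 CPM in the pair, 83.2, 152 and 116 in HMW and 129, 128 and 98.0 in Zymosan, and its call was lost under 8 of 17 alternatives. Batf2, a transcription factor of the AP-1 family, had the largest difference over HMW at 2.15 (SE 0.46), from 16.6, 8.97 and 18.6 to 50.9, 59.0 and 80.3 CPM. Its call above both was lost under 9 of 17 alternatives, among them DESeq2, no filter, the fit of the 4 groups alone and each Zymosan library left out. Its Ctrl libraries read 41.6, 24.9 and 9.60 CPM, so the pair's lowest value was above Ctrl while neither single ligand was. Papd7 (Tent4a in RefSeq), a non-canonical poly(A) polymerase, was at 0, 0 and 9.60 CPM in Ctrl, 49.9, 71.7 and 46.5 in HMW, 27.6, 70.4 and 42.0 in Zymosan and 121, 129.8 and 149.6 in the pair. Each single ligand alone had already been called higher than Ctrl for Papd7, by 3.64 and 3.39 log2, on Ctrl libraries with 1 count in all.

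**Figure D2:**
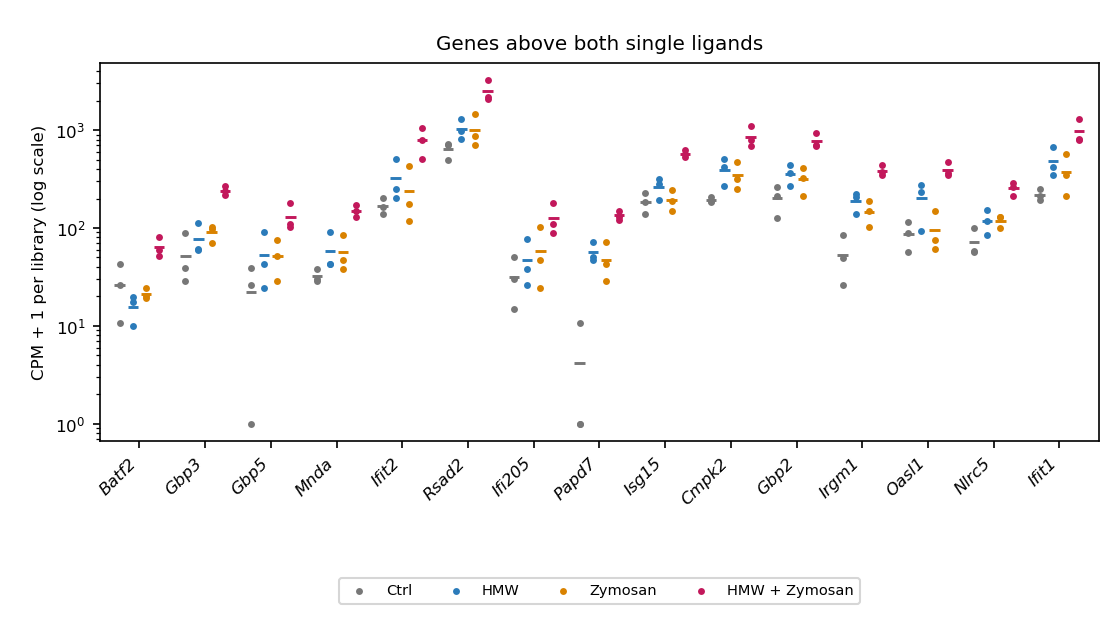
CPM + 1 of each library (points, log scale) and the group mean (line) for the 15 genes above both single ligands in Ctrl, HMW, Zymosan and the pair. The 3 pair libraries lie above all 6 single-ligand libraries for 13 of the 15 genes and overlap them for Ifit2 and Ifi205. The genes were chosen on these same libraries.

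Between libraries of a group the 15 genes varied together. Their summed level was 3501, 4816 and 2654 CPM in HMW, 2678, 4467 and 2328 in Zymosan and 6969, 7595 and 10377 in the pair, against 1884, 2220.1 and 1795 in Ctrl. Replicate 2 had the highest and replicate 3 the lowest sum in Ctrl, HMW and Zymosan, while replicate 3 was highest in the pair. Replicate 2 was the highest HMW library for 13 of the 15 and the highest Zymosan library for 11, and replicate 3 was the highest pair library for 14. The 3 sums of the pair did not overlap those of either single, but the genes were chosen on these same libraries. The spread of this sum was 29.8% of the mean in HMW, 36.3% in Zymosan and 21.8% in the pair. It was between 0.232% and 12.5% in 9 groups that hold HMW, Zymosan or both with LPS, SeV or cGAMP, 8.94%, 12.1% and 48.9% in Zymosan, HMW and both with PAM, and 14.7%, 21.0% and 9.95% with CpGB. The test shares 1 spread per gene over all 64 groups, so its p-values can be too small where these groups vary more.

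The count of genes above both depended on single libraries. Without replicate 3 of the pair it was 4 (Gbp3, Isg15, Nlrc5 and Rsad2), without replicate 3 of HMW 5, without replicate 3 of Zymosan 9 and without replicate 2 of HMW 33. With each library thinned to the smallest total of the series it was 7. In each of these 5 settings all 15 genes remained higher in the pair than in both singles. In a fit of the 4 groups alone, which uses their own spread, 21 genes were above both and 14 of the 15 were among them.

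The threshold fell within a run of related genes. Just inside it were Ifit1 (1.02 as the smaller of the 2 log2 differences), Nlrc5 (1.02) and Oasl1 (1.03). Just outside were Cxcl10 (0.997), a chemokine for T cells, and the RNA sensor Ifih1 (0.99), the synthetase Oas3 (0.98) and the GTPase Ifi47 (0.97). Cxcl10 was at 305, 511 and 336 CPM in Ctrl, 457, 717 and 423 in HMW, 497, 781 and 331 in Zymosan and 928, 962 and 1309.9 in the pair, and its pair libraries exceeded all singles. Oas1a, Dhx58, Il15 and Cd86 passed the fold but missed the adjusted p of 0.05, at 0.0534, 0.0599, 0.0603 and 0.067 by edgeR.

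Adding HMW to zymosan raised interferon-response genes and left the inflammatory genes near the level of Zymosan alone. Of the 15 genes of the interferon list, 13 were called higher in the pair than in Zymosan and 0 lower, with a median log2 difference of 1.43, where 1.84% of all tested genes were called higher. Against HMW 8 were called higher, with a median of 1.02, where 5.06% of all genes were. HMW alone had raised 5 of them over Ctrl, where it raised 0.953% of all genes, and Zymosan alone 0, where it raised 4.43% (3 of the list at the adjusted p without the fold threshold). The list was drawn up with earlier results of these libraries known and is no independent evidence of the direction. Without replicate 3 of the pair the counts were 9 against Zymosan and 2 against HMW, and the medians 1.18 and 0.85. Against HMW the count was 4 without replicate 3 of HMW, with library size alone and with thinned libraries, and against Zymosan it was 8 without replicate 3 of Zymosan.

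Within the list, Usp18, a protease that removes Isg15 and restrains interferon signalling, was at 73.6, 96.0 and 56.0 CPM in Zymosan and 184, 283 and 252 in the pair, a log2 difference of 1.71 (SE 0.28). Irf7, the transcription factor that amplifies interferon production, went from 285, 269 and 149 to 541, 449 and 591 CPM, by 1.25 (SE 0.21), with HMW at 399, 421 and 181. Mx1, a dynamin-like antiviral GTPase, went from 579.7, 832 and 429 to 1036, 1127 and 1569 CPM, by 1.06 (SE 0.15). All 3 pair libraries lay above the Zymosan libraries for each of the 3 genes (adjusted p = 4.66e-07, 2.84e-06 and 1.49e-08 by edgeR). Zbp1, a sensor of Z-form nucleic acid, and Isg20, an exonuclease, differed from Zymosan by 1.22 (SE 0.32) and 1.73 (SE 0.47), calls lost under 4 of 14 alternatives each, among them without replicate 3 of the pair and without replicate 1 or 3 of Zymosan. That of Irf7 was lost with thinned libraries and without replicate 3 of Zymosan. Mx2 and Ifi44 were the members not called against Zymosan, at 0.76 (SE 0.29) and 1.83 (SE 0.64). The interferon-β gene Ifnb1 was barely detected, with 3 counts in Ctrl, 4 in HMW, 8 in Zymosan and 6 in the pair over 3 libraries each, and its log2 difference from Zymosan was -0.70 (SE 0.84).

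The sensors of double-stranded RNA followed in part. Of 10 tested genes of the sensing list, 3 were called higher than Zymosan, where 1.84% of all genes were, and 1, Dhx58, higher than HMW, where 5.06% were. With thinned libraries the count against Zymosan was 1. The call of Dhx58 against HMW, at 1.02, was lost under 7 of 14 alternatives, with RLE factors, library size alone, thinned libraries and DESeq2, and without replicate 1 or 3 of the pair or replicate 3 of HMW. Ddx58, which codes for RIG-I, was at 41.6, 49.9 and 76.8 CPM in Ctrl, 175, 260.1 and 130.1 in HMW, 55.2, 173 and 107 in Zymosan and 299, 319 and 379 in the pair. Ifih1, which codes for MDA5, was at 55.4, 99.8 and 115 CPM in Ctrl, 166, 179 and 149 in HMW, 101, 134 and 135 in Zymosan and 242, 319 and 398 in the pair, and Dhx58, which codes for LGP2, at 27.7, 37.4 and 38.4 CPM in Ctrl, 66.5, 94.2 and 65.1 in HMW, 46.0, 44.8 and 46.7 in Zymosan and 165, 142 and 161 in the pair. The differences from Zymosan were 1.53 (SE 0.23) for Ddx58, 1.37 (SE 0.24) for Ifih1 and 1.75 (SE 0.34) for Dhx58. Eif2ak2, the kinase PKR that halts translation, differed from Zymosan by 0.80 (SE 0.33) and was not called. Ddx58 had been called higher in HMW alone, and the pair was higher than HMW by 0.82. Tlr3 itself had 8 counts in HMW, 1 in Zymosan and 9 in the pair.

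Among the largest rises over Zymosan outside the lists, Oas3, which makes the 2-5A activator of RNase L, went from 46.0, 51.2 and 51.3 CPM in Zymosan to 223, 212 and 270.0 in the pair (2.24 (SE 0.30)), and Oas1a from 9.20, 19.2 and 23.3 to 82.7, 64.9 and 83.9 (2.02 (SE 0.49)). Phf11b went from 27.6, 38.4 and 42.0 to 102, 148 and 201. Il15, a cytokine for NK cells and memory T cells, went from 18.4, 25.6 and 18.7 to 69.9, 53.1 and 113, Mlkl, the effector of necroptosis, from 18.4, 32.0 and 23.3 to 89.0, 59.0 and 124, and Fcgr1, the high-affinity IgG receptor, from 18.4, 70.4 and 28.0 to 114, 124 and 168. I830012O16Rik, an Ifit-family gene, and Fcgr1 overlapped the pair in HMW alone, at 91.5, 89.7 and 37.2 and 166, 215 and 83.7 CPM. The others by size were 2610002M06Rik (1 count in Zymosan, 15 in the pair), Ms4a4c, Snn and Gm12250. The calls of 2610002M06Rik, Ms4a4c and Snn were lost under 8 of 13, 6 of 14 and 5 of 14 alternatives.

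Of the 87 genes higher in the pair than in Zymosan, 33 were also called in HMW against Ctrl, a comparison with no library in common. HMW alone raised 0.953% of all genes tested. The overlap is 37.9% of the 87 and 73.3% of the 45 genes that HMW raised. Without replicate 2 of HMW only 20 genes were raised, and 30 without replicate 3 of Ctrl, so the overlap is at most that large there. The median effect of HMW alone on the 87 was 1.13 log2, against 0.03 over all genes, and the median difference of the pair from Zymosan was 1.38. Stat2, a transcription factor that carries the interferon signal, was called higher than Ctrl in each single ligand. It was at 139, 87.3 and 28.8 CPM in Ctrl, 341, 354 and 223 in HMW, 129, 249.6 and 159 in Zymosan and 286, 259.7 and 361 in the pair. Its difference from HMW was 0.03 (SE 0.19), which missed the threshold (adjusted p = 0.952 by edgeR).

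Genes lower in the pair than in Zymosan numbered 5 (0.106%), but 0 without replicate 3 of the pair and with thinned libraries, 1 by DESeq2, 2 without a filter, 3 without replicate 1 of the pair or replicate 1 or 2 of Zymosan, and 9 with library size alone. Slc37a3, a sugar phosphate transporter family member, had 12 counts in Zymosan and 0 in the pair, at least 5.01-fold lower by a floor of 3 counts over the group. Rrn3, a factor for RNA polymerase I, was at 73.6, 83.2 and 117 CPM in Zymosan and 19.1, 47.2 and 32.8 in the pair. B4galnt1, a ganglioside synthase, and Ptprs, a receptor phosphatase, were each called lower than HMW and than Zymosan in the separate comparisons, Ptprs at 38.2, 47.2 and 58.4 CPM against 99.8, 98.6 and 149 in HMW and 92.0, 109 and 145 in Zymosan. Ptprs was the single gene called below both in the fit of the 4 groups alone (adjusted p = 0.0282 by edgeR). Slc24a6 was the fifth, with 44 counts in Zymosan and 23 in the pair, and B4galnt1 had 43 and 20. The calls of B4galnt1, Ptprs and Slc24a6 against Zymosan were lost under 7, 7 and 8 of 13 alternatives, and that of Rrn3 under 5. Among genes whose 3 pair libraries lay below all 6 single-ligand libraries, 2.27% of those tested, the largest smaller-of-both differences at 50 CPM or more in a single were those of Lpar6, Tbl1xr1, D8Ertd738e, Ptprs and Ptgs1. Tbl1xr1, a transcriptional corepressor exchange factor, was at 74.8, 40.4 and 41.8 CPM in HMW, 27.6, 32.0 and 32.7 in Zymosan and 6.36, 17.7 and 10.9 in the pair, and D8Ertd738e at 58.2, 98.6 and 92.9, 92.0, 70.4 and 65.3 and 25.4, 47.2 and 18.2.

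On the inflammatory list 9 of 13 tested genes were called higher than HMW, where 5.06% of all genes were, and 0 lower, with a median log2 difference of 1.56. None of the 13 was called against Zymosan, where 1.84% of all genes were called higher and the median was 0.02. The summed level of the list was 3617, 3843 and 3211 CPM in HMW, 14742, 14334 and 12792 in Zymosan and 15058, 12612 and 13829 in the pair. Zymosan and pair overlapped, and HMW (median effect on the list -0.11) overlapped Ctrl at 2992, 3866 and 3197 CPM.

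Tnf, the cytokine tumour necrosis factor, was at 637, 1135 and 797 CPM in Ctrl, 989.5, 1063 and 902 in HMW, 5494, 5420.0 and 5206 in Zymosan and 5640.3, 5223 and 5433 in the pair. The pair exceeded HMW by 2.46 (SE 0.17) log2 (adjusted p = 6.57e-30 by edgeR) and differed from Zymosan by 0.02 (SE 0.15), with a 95% interval from -0.29 to 0.32. The neutrophil chemokines behaved alike. Cxcl2 was at 416, 549 and 413 CPM in Ctrl, 557, 543 and 460.1 in HMW, 3856, 3737 and 3196 in Zymosan and 3574, 2608 and 2926 in the pair, and Cxcl1, at far lower levels, at 41.6, 24.9 and 106 CPM in Ctrl, 16.6, 53.8 and 27.9 in HMW, 239, 249.6 and 247 in Zymosan and 223, 230.2 and 270.0 in the pair. Their differences from Zymosan were -0.24 (95% interval -0.57 to 0.09) and -0.01 (-0.54 to 0.53). For Ptgs2, the inducible cyclooxygenase, the pair had 127, 142 and 120.4 CPM, HMW 33.3, 22.4 and 4.65 and Zymosan 119.6, 115 and 154. Il1a and Il1b, which code for both forms of interleukin 1, were 2.21 (SE 0.19) and 1.34 (SE 0.15) above HMW. Il6 was not called in either comparison, at 83.2, 157 and 88.3 CPM in HMW, 138, 166 and 159 in Zymosan and 146, 165 and 161 in the pair.

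**Figure D3:**
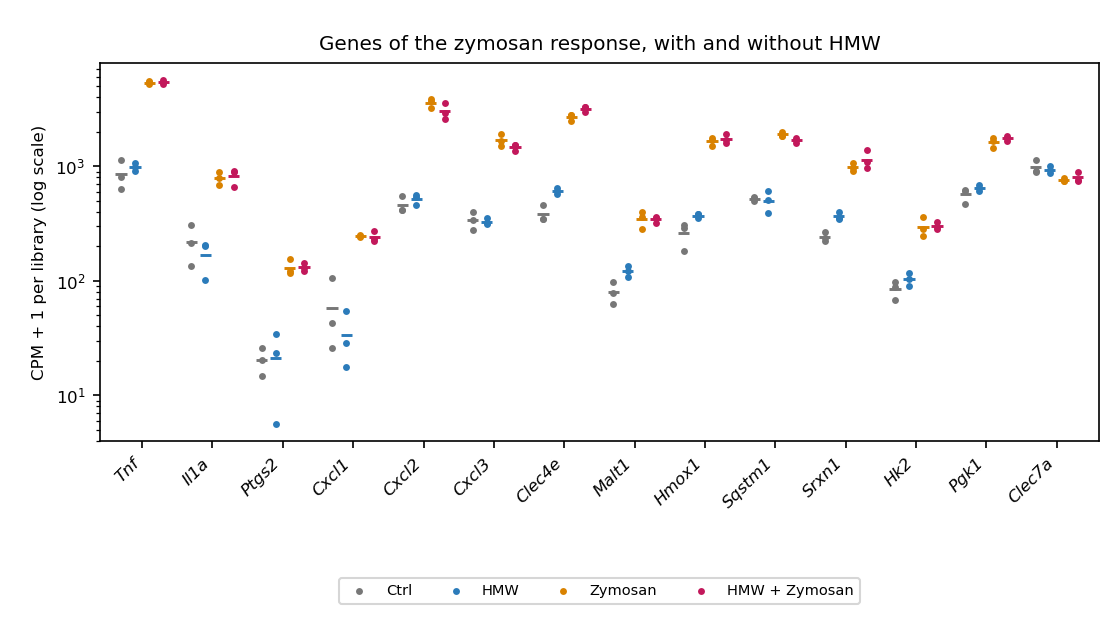
CPM + 1 of each library (points, log scale) and group means (lines) for 14 genes, those of the zymosan response and Clec7a, which codes for its receptor. For Tnf, Cxcl2, Hmox1 and most others the Zymosan and pair libraries overlap and lie above HMW and Ctrl, while Clec7a stays between 737 and 1122 CPM.

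Of the 9 tested genes of the Dectin-1 list, 2, Clec4e and Malt1, were called higher than HMW, where 5.06% of all genes were. Against Zymosan 0 were called, near the 1.95% of all genes called there. Clec4n, which codes for Dectin-2, and Syk differed from HMW by 0.55 and 0.59 on the log2 scale, past the adjusted p but under the fold threshold (adjusted p = 0.00135 and 0.00338 by edgeR). Clec4e codes for Mincle, a receptor for fungal and mycobacterial glycolipids, and was at 346, 461 and 346 CPM in Ctrl, 607, 650.2 and 576 in HMW, 2798, 2803 and 2459 in Zymosan and 3319, 2980.3 and 3266 in the pair. It was 2.38 (SE 0.12) above HMW and 0.25 (SE 0.11) above Zymosan, whose libraries it did not overlap (adjusted p = 0.297 against Zymosan by edgeR). Malt1, the paracaspase of the Card9 complex, was at 133, 108 and 121 CPM in HMW, 359, 397 and 279.9 in Zymosan and 318, 360.0 and 354 in the pair. Clec7a, which codes for Dectin-1 itself, was at 1122, 910.5 and 893 CPM in Ctrl, 998, 928 and 874 in HMW, 745, 787 and 746 in Zymosan and 897, 761 and 737 in the pair and was not called. Card9 had 0 counts in these 12 libraries.

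Of 10 tested genes of the oxidative stress response controlled by Nrf2, 5 were called higher in the pair than in HMW (median 1.35), where 5.06% of all genes were, and 0 were called against Zymosan (median -0.02), near the 1.95% of all genes called there. Hmox1, heme oxygenase 1, was at 180.1, 287 and 307 CPM in Ctrl, 349, 381 and 381 in HMW, 1500.0, 1702 and 1768 in Zymosan and 1685, 1924 and 1598 in the pair. Srxn1, which repairs oxidized peroxiredoxins, Txnrd1, thioredoxin reductase, Sqstm1, an autophagy receptor, and Slc7a11, the cystine transporter, were 1.61 (SE 0.17), 1.39 (SE 0.16), 1.71 (SE 0.15) and 1.51 (SE 0.19) above HMW on the log2 scale. Prdx1, the most abundant of the list at 25277, 20071 and 24242 CPM in the pair and 11500.0, 11067 and 12725 in HMW, fell just short of the fold threshold at 0.98, as did Gclm, a subunit of the enzyme that starts glutathione synthesis, at 1.00. The 95% interval of the pair minus Zymosan was -0.26 to 0.37 for Hmox1 and -0.10 to 0.51 for Srxn1.

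Of the glycolysis genes, 5 of 10 were higher in the pair than in HMW (median 0.91), where 5.06% of all genes were, and 0 were called against Zymosan (median 0.07), where 1.95% of all genes were. Hk2, which traps glucose in the cell, was at 116, 103 and 88.3 CPM in HMW, 359, 243 and 279.9 in Zymosan and 293, 283 and 325 in the pair. Pgk1 went from 682, 605 and 641 in HMW to 1838, 1647 and 1781 in the pair, Ldha, which makes lactate, from 1231, 1134 and 1189.7 to 2435, 2278 and 2481, and Slc2a1, the glucose transporter GLUT1, from 225, 282 and 204 to 541, 513 and 493. Eno1 was 1.66 (SE 0.44) above HMW, and Pfkp was 0.71 (SE 0.32), short of the threshold. Ldha, at 1.02, was below the threshold under other scalings and without replicate 3 of the pair.

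Chemokine genes divided between both patterns. Of 16 tested, 6 were called higher than HMW (5.06% of all genes) and 1, Cxcl10, higher than Zymosan (1.84% of all genes). The Cxcl10 call was lost with library size alone and without replicate 3 of the pair or of Zymosan. Ccl3 and Cxcl3 moved with Tnf, at 1.48 and 2.16 above HMW and 0.10 and -0.20 from Zymosan. Ccl22, a chemokine for regulatory T cells, was 1.22 (SE 0.21) above HMW. Ccl5, which attracts T cells and monocytes, was at 2133, 2469.5 and 2074 CPM in Ctrl, 2478, 2605 and 2105 in HMW, 2356, 2822 and 2267 in Zymosan and 3974, 3305 and 4247 in the pair, with pair libraries above all singles but a difference under 1 log2 unit from each (0.69 (SE 0.15) and 0.63 (SE 0.15)).

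Ccl4, a chemokine for T cells and monocytes, stood apart from its neighbour Ccl3. Its level was 789.5, 1159.9 and 864 CPM in Ctrl, 715, 776 and 729.6 in HMW, 1675, 1561 and 1432 in Zymosan and 2868, 2284 and 2813 in the pair. HMW alone lay below Ctrl in every library, Zymosan above, and the pair above all. The pair exceeded HMW by 1.84 (SE 0.18) and Zymosan by 0.78 (SE 0.17) (adjusted p = 2.29e-18 and 4.42e-04 by edgeR), the second under the fold threshold. The interaction, the pair minus both singles plus Ctrl on the log2 scale, was 1.12 (SE 0.27). Its adjusted p was 0.149 over all genes by edgeR. It was 0.0343 with RLE factors, 0.00362 without a filter on low counts, 1.30e-06 in the fit of the 4 groups alone, 0.0417 without replicate 1 of every group and 0.0273 by DESeq2, and between 0.0731 and 0.712 in the other alternatives.

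Over all genes the interaction was called at 0 of 4720 genes by edgeR and at 1, Ccl4, by DESeq2, with 256 and 219 at an unadjusted p under 0.05. The 15 genes above both were chosen on the same pair and single-ligand values that enter the interaction, so its values for them are a description. For Isg15 it was 1.08 (95% interval 0.37 to 1.79), for Batf2 2.31 (0.54 to 4.08) and for Rsad2 0.59 (0.05 to 1.13), with adjusted p-values of 0.557, 0.697 and 0.866 by edgeR. For 11 of the others the interval spanned 0, as for Ifit1 at 0.25 (-0.40 to 0.89), and for Papd7 it ran from -4.24 to -0.08. Genes with the largest interactions at an unadjusted p under 0.05 were Tfec, Ampd3, Zfp131, Mcm6 and Chuk. Tfec, a transcription factor of the Mitf family, had 0 counts in Ctrl and 33.3, 31.4 and 23.2, 46.0, 89.6 and 32.7 and 76.3, 59.0 and 65.7 CPM in HMW, Zymosan and the pair. With Ctrl at 0 such an interaction depends on the prior count.

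Maturation genes showed a few changes. Cd86, a costimulatory ligand of Cd28, was at 27.7, 49.9 and 28.8 CPM in Ctrl, 58.2, 49.3 and 46.5 in HMW, 55.2, 51.2 and 51.3 in Zymosan and 121, 112 and 142 in the pair. It was called against each single on its own, by 1.33 (SE 0.36) and 1.28 (SE 0.38), but its larger p missed the threshold after adjustment. The Cd86 call against Zymosan was lost under 6 of 14 alternatives, with thinned libraries and without replicate 1 or 3 of the pair or any 1 Zymosan library, and that against HMW with thinned libraries and without replicate 3 of the pair. Cd40 was 1.19 (SE 0.29) above HMW. No MHC class II gene of 6 was called in either comparison, where 7.22% and 1.95% of all genes were, a count near that background, and the medians were 0.18 and 0.08. Among NF-kB feedback genes 3 of 12 were higher than HMW, where 5.06% of all genes were, including Tnfaip3, which codes for A20, at 241, 269 and 209 CPM in HMW and 649, 537 and 617 in the pair. Against Zymosan 0 were called, near the 1.95% of all genes called there. Tnip1, a partner of A20, and Nfkbiz, a nuclear IkB protein, were 1.25 (SE 0.20) and 1.56 (SE 0.38) above HMW, while Nfkbia and Nfkbie, which hold NF-kB in the cytoplasm, differed by 0.76 (SE 0.13) and 0.62 (SE 0.28) and were not called. Cd274, the inhibitory ligand PD-L1, differed by 0.86 (SE 0.15) from HMW and 0.50 (SE 0.15) from Zymosan.

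**Figure D4:**
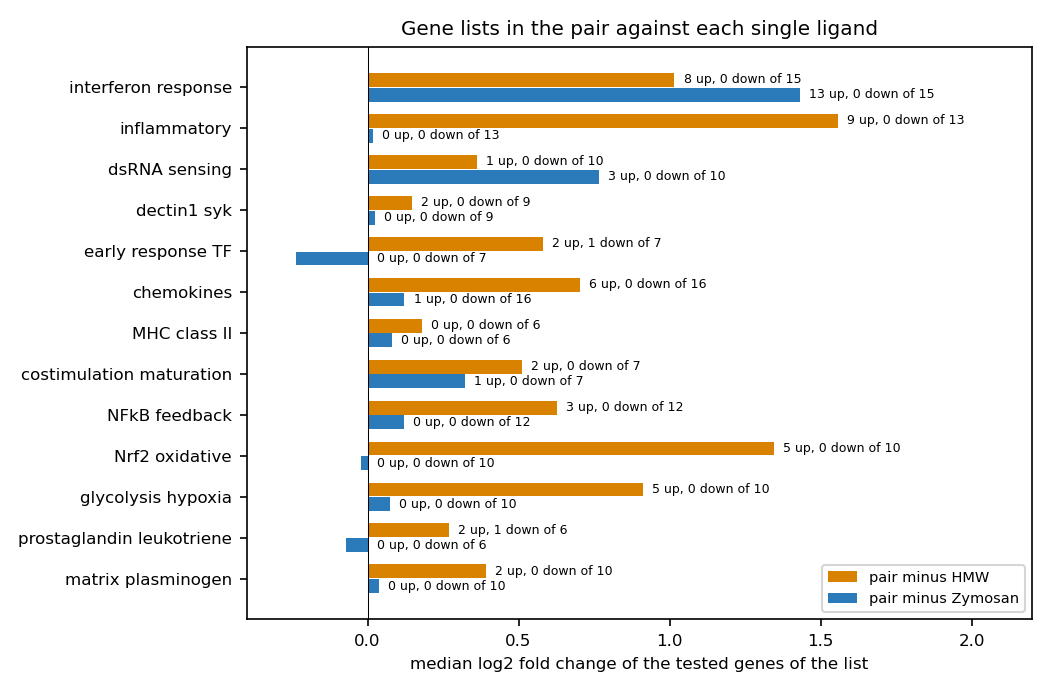
Bars give the median log2 fold change of the tested genes of each list in the pair against HMW and against Zymosan, with the number called higher and lower. The interferon list reached 1.02 and 1.43, while the inflammatory list reached 1.56 against HMW and 0.02 against Zymosan.

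Most of the largest rises over HMW were of genes at few counts there. Eid3 had 0 counts in HMW and 27 in the pair, at least 8.37-fold higher by the floor of 3 counts. Il1f6, which codes for interleukin 36α, had 0 and 23, at least 7.13-fold, and H2-Q5 0 and 17, at least 5.27-fold. Gdf15, a stress-induced hormone of the TGF-β family, was at 27.7, 74.8 and 0 CPM in Ctrl, 8.32, 8.97 and 13.9 in HMW, 239, 211 and 173 in Zymosan and 248, 177 and 153 in the pair, or 4.04 (SE 0.44) above HMW (adjusted p = 1.29e-14 by edgeR), on 6 counts in HMW and 111 in the pair. F3, tissue factor, which starts coagulation, went from 8.32, 13.5 and 0 to 76.3, 82.6 and 83.9 CPM. G530011O06Rik went from 41.6, 35.9 and 18.6 to 267, 330.5 and 365. Egln3, an oxygen-sensing hydroxylase, had 1 count in HMW and 25 in the pair, and Gem, a small GTPase, 1 and 31. Daam1, Gm7120, Mid1 and Cbln1 completed the 12.

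For nearly all of these the pair was near Zymosan. Gdf15 differed from Zymosan by -0.11 (SE 0.26), F3 by -0.20 (SE 0.38) and G530011O06Rik by -0.24 (SE 0.22). Of the 239 genes higher than HMW, 115 were also called in Zymosan against Ctrl, where no library is shared and 4.43% of all genes were called higher. The overlap is 48.1% of the 239 and 55.0% of the 209 that Zymosan raised. Their median effect of Zymosan alone was 1.26, against 0.02 over all genes. Early response factors gave 2 higher and 1 lower of 7 against HMW, where 5.06% of all genes were higher and 2.16% lower, with Egr1 and Maff 1.76 (SE 0.51) and 1.92 (SE 0.42) above HMW. Fos was -1.10 (SE 0.36) from HMW, with 74.8, 94.2 and 163 CPM there and 38.2, 64.9 and 54.7 in the pair. The Fos call was lost under 6 of 14 alternatives, among them DESeq2, no filter and, left out in turn, replicates 1 and 3 of the pair and replicate 3 of HMW. In the prostaglandin list Ptgs2 and Ptges, 2 of 6 tested, were called higher than HMW, where 5.06% of all genes were, and Ptgs1, the constitutive cyclooxygenase, was called lower, as 2.16% of all genes were, at 50.9, 29.5 and 36.5 CPM against 66.5, 71.7 and 167 in HMW. The call of Ptges was lost under 11 of 14 alternatives, each pair or HMW library left out among them, and that of Ptgs1 under 6. Pla2g4a, the phospholipase that releases arachidonic acid, differed by 0.72 (SE 0.46) and was not called. In the matrix list 2 of 10 were higher than HMW, where 5.06% of all genes were, Serpinb2, an inhibitor of plasminogen activators, by 2.47 (SE 0.72) and Mmp13, a collagenase, by 1.28 (SE 0.23). Mrc1, the mannose receptor of alternatively activated macrophages, was -0.95 (SE 0.27) from HMW, just under the fold threshold.

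The pair was called lower than HMW at 102 genes (2.16%). That number was 45 without replicate 3 of HMW, 56 without replicate 3 of the pair, 51 without a filter, 63 by DESeq2, 24 with thinned libraries and 164 with library size alone. Lpar6, a lysophosphatidic acid receptor, had 35 counts in HMW and 1 in the pair, a ratio of 37.7 with a counting interval from 6.33 to 1529, and Zymosan read 9.20, 12.8 and 18.7 CPM. Sesn1, a stress-responsive inhibitor of mTORC1, went from 91.5, 53.8 and 51.1 CPM in HMW to 12.7, 5.90 and 7.30 in the pair. Others among the largest falls were Zdhhc3, Prkrir and Lyl1, whose call was lost under 6 of 14 alternatives. Of the 102, 30 were called lower in Zymosan against Ctrl, where 1.82% of all genes were, which is 29.4% of the 102 and 34.9% of the 86, and the median effect of Zymosan alone on the 102 was -0.90.

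The same additions were made in the series on top of a further ligand, in libraries that the pair comparison does not use. HMW added to Zymosan + PAM changed 258 genes, 228 higher and 30 lower (5.47%), or 119 with thinned libraries. HMW added to Zymosan with LPS, SeV, cGAMP or CpGB changed 0 genes each by edgeR, with 217, 263, 224 and 215 at an unadjusted p under 0.05. DESeq2 called 0, 1, 0 and 0. Of the 87 genes higher in the pair than in Zymosan, 77 were called higher with PAM, where 4.83% of all genes were, which is 88.5% of the 87 and 33.8% of the 228. The median effect of HMW on these 87 was 1.85 with PAM, -0.08 with LPS, 0.12 with SeV, 0.02 with cGAMP and 0.04 with CpGB. Of the 15 genes above both, 14 were called higher with PAM and 0 with each of the other 4.

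**Figure D5:**
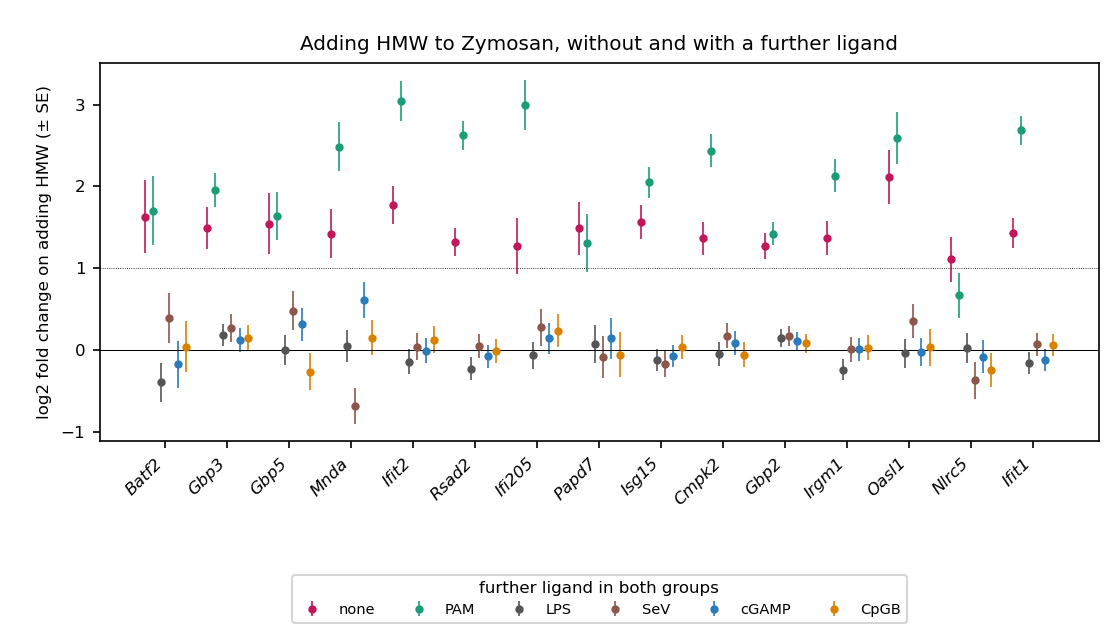
Log2 fold change (± SE) on adding HMW to Zymosan for the 15 genes above both, without a further ligand and with PAM, LPS, SeV, cGAMP or CpGB in both groups. The points without a further ligand and with PAM lie above 0 for every gene, and those with the other 4 ligands lie between -0.68 (Mnda with SeV) and 0.61 (Mnda with cGAMP).

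In the 4 contexts where no gene was called, the 15 genes together stood higher in the group without HMW than in Zymosan alone. Whether that level bears on the lack of calls was not tested. The summed level of the 15 was 2973 ± 266 CPM in Zymosan + PAM, near the 3157 ± 1147 of Zymosan alone (SD, n = 3), but 33899.7 ± 1053 in Zymosan + LPS, 24306 ± 3049 in Zymosan + SeV, 40119 ± 714 in Zymosan + cGAMP and 16925 ± 2487 in Zymosan + CpGB. With HMW added it was 31315 ± 1031, 25703 ± 200.3, 39583 ± 559.6 and 17304 ± 1722. With HMW and PAM the 3 libraries spread widely, at 22564, 8587 and 12810.1 CPM. Replicate 1 of that triplet stood apart, with a total of 247049 counts beside 262080 and 285614 in the others. Without replicate 1 of all groups the PAM context gave 158 called genes, 13 of the 15 among the higher, and a median of 1.84 for the 15 in place of 2.13.

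The size of the HMW effect with a further ligand was tested against that without it, over all genes and with no fold threshold. It differed at 98 genes with LPS (2.08%), 59 with SeV (1.25%), 72 with cGAMP (1.53%), 60 with CpGB (1.27%) and 13 with PAM (0.275%) by edgeR at an adjusted p under 0.05. The effect was smaller with the further ligand at 96 of 98, 57 of 59, 70 of 72 and 60 of 60, and larger at 12 of the 13 with PAM. Adding Zymosan to HMW, in contrast, changed genes in each context: 225 with PAM (4.77%), 109 with LPS (2.31%), 169 with SeV (3.58%), 154 with cGAMP (3.26%) and 239 with CpGB (5.06%).

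Zymosan genes kept a rise in part of these contexts. On adding Zymosan, Hmox1 rose by 1.10 with PAM, 1.47 with LPS, 2.46 with SeV, 2.10 with cGAMP and 1.48 with CpGB on the log2 scale, against 2.21 without a further ligand. Tnf rose by 1.37 with SeV, 1.37 with cGAMP and 1.01 with CpGB, and was not called with PAM (0.23) or LPS (0.64). Cxcl2 rose by 2.54 with SeV and 1.87 with cGAMP but was -0.59 with PAM. Ccl4 was called higher with PAM, LPS, cGAMP and CpGB, between 1.02 and 1.35.

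Levels of the 15 genes in the pair stayed well below those in single ligands of strong interferon response. As a share of the cGAMP level they ran from 14.3% (Oasl1) to 83.3% (Papd7), with a median of 36.8%, and of the LPS level from 21.6% (Gbp2) to 81.6% (Papd7), with a median of 32.1%. Ordered over the 64 groups from high to low, the pair ranked between 45 and 60 for these genes. Of the 21 pairs of the series, PAM + HMW was the only other pair with any of the 15 above both of its singles, with 7 of them among 31 such genes. Without the thresholds all 15 were higher than in both singles also in PAM + HMW, PAM + SeV and PAM + cGAMP, and 14 in PAM + LPS and HMW + SeV.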

How the data were processed

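Cells of 64 groups with 3 libraries each were profiled by RNA sequencing with unique molecular identifiers. The authors deposited 1 table of counts per gene and library. BWA 0.7.15 and mm10 stand in the submitters' processing notes, while the annotation, the collapsing of identifiers and the treatment of shared reads are not given in the sources used here. Samples were grouped by their labels. All libraries were fitted with 1 coefficient per group in edgeR 4.0.16 (R 4.3.3) by the quasi-likelihood test, after filterByExpr and with TMM factors, and p-values were adjusted by Benjamini-Hochberg over all 4720 genes tested. A call needed an adjusted p under 0.05 and a log2 fold change of at least 1. The interaction and the tests of a difference between effects had no fold threshold. Standard errors are the log2 fold change divided by the square root of F. DESeq2 1.42.0, RLE factors, library size alone, no filter, thinned counts, a replicate block, a fit of the 4 groups, library sizes over all genes (chosen after seeing the data) and each library left out were alternatives.

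Named genes were all called above or below both singles, the 12 rises and 6 falls of largest log2 change against each single at 20 CPM or more without overlap, the 5 lowest against both at 50 CPM or more, called list members, 7 set genes and the 5 largest interactions. Ccl5, Stat2, Ifi47, Clec4n, Syk, Tlr3, Card9 and Mgat4a were named outside this rule, after their values were seen. A few genes that the rule names are not reported here. The members and lists were chosen with earlier results of these data known. On simulated counts of 4720 genes the rule for above both recovered 18% of genes raised 2-fold (45% without the fold threshold) and 98% of those raised 4-fold, with 0 false calls. The simulation gave every gene the same spread, 10.3% beyond counting noise, and gave genes not raised the same level in all groups. Only genes at 20 CPM or more were raised, so these figures need not hold for the real libraries. Library totals from 61823 to 263025 in these 12 libraries set the precision of low genes. The deviations of same-numbered libraries correlated at r from -0.03 to 0.11 over 18 pairs of libraries, with 1 above 0.1, so the numbers were not taken as pairing. Counting noise lowers such correlations, and a shared preparation was not tested.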

Additional observations from a re-analysis of the deposited data

Results flagged for a closer look

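The effect of HMW added to Zymosan differed with a further ligand present from the effect without it. By edgeR's quasi-likelihood test of that difference over all genes, 13 genes differed with PAM, 98 with LPS, 59 with SeV, 72 with cGAMP and 60 with CpGB. The effect was smaller with the further ligand at 96 of the 98 genes with LPS and at all 60 with CpGB, and larger at 12 of the 13 with PAM.

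The effect of Zymosan added to HMW likewise differed at 179 genes with PAM, 197 with LPS, 124 with SeV, 74 with cGAMP and 145 with CpGB. Its size was smaller with the further ligand at 125, 160, 105, 60 and 95 of these. The tests share the libraries of HMW, Zymosan and the pair, so the 5 counts of each kind are not independent of each other.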

How the results depend on the processing

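Of 2789 values of named genes under alternatives, 2457 kept their side of the threshold, 294 lost and 38 gained the call. The sign changed at 69, none of them called in either setting. The 15 genes above both stayed higher in the pair than in each single throughout. Their number was 5 with library size alone, 32 without a filter, 24 with library sizes over all genes (14 and 15 of them shared), 7 with thinned libraries, 45 without the fold threshold, and 4 to 33 with 1 library left out. Thinning to the smallest total gave 124 genes against HMW, 32 against Zymosan, 254 against Ctrl, 25 for HMW and 133 for Zymosan against Ctrl, and a median of 57 in place of 169 for Zymosan added with a further ligand, since fewer counts remain. Without the fold threshold 558 differed from HMW. The interaction had 1 call with RLE factors, without a filter, in the fit of the 4 groups and by DESeq2, and 0 to 1 with 1 library left out, where Mgat4a was called without Zymosan replicate 3. Below both, the fit of the 4 groups gave 1. Leaving out 1 library gave 234 to 331 against HMW, 49 to 104 against Zymosan, 378 to 471 for the pair, 20 to 66 for HMW and 212 to 273 for Zymosan against Ctrl. Leaving out 1 replicate number from every group gave 107 to 138 for Zymosan added with a further ligand, lowest without replicate 2. The cause of these shifts, other than fewer counts or libraries, was not tested. With the replicate block there were 345 genes against HMW, 95 against Zymosan and 17 above both. The replicate numbers were not taken as pairing. The block moved the sensing list against HMW from 1 to 2 genes and HMW added with SeV from 0 to 1. Another scaling moved the split of the pair against Ctrl from 354 higher and 150 lower to 292 and 204 (RLE), 269 and 252 (library size alone) or 241 and 163 (DESeq2), and that of Zymosan against Ctrl from 209 and 86 to 166 and 138 (RLE and library size alone) or 119 and 94 (DESeq2). HMW added with SeV also called 1 gene with RLE factors, with library size alone, by DESeq2 and without each HMW library, and 2 with thinned libraries.

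On simulated counts the rule for above both recovered 18% of genes raised 2-fold, which is its own fold threshold, and 45% without that threshold. Those counts gave every gene the same spread, so the shares need not hold for the real libraries. Genes under about 20 CPM rest on a few counts.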
